A study of Oryza sativa with 36 samples.

Results

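The step from AM3 to AM4 was examined in rice (Oryza sativa), in the 6 AM4 libraries against the 6 AM3 libraries of the series, 12 of the 35 libraries with counts. AM3 and AM4 are tissue labels that the submitters do not spell out, and members were chosen by that label alone. Each of the 12 is described as axillary meristem tissue of 1 of 2 cultivars. These are NIL-MP3, whose name marks a near-isogenic line, and Takanari, a high-yielding indica rice. The series also holds libraries labelled SAM (5 with counts), a tissue label apart from AM1 to AM5. Their levels are given below beside those of the AM labels. The 4 groups used here were NIL-MP3 AM3, NIL-MP3 AM4, Takanari AM3 and Takanari AM4, with 3 libraries each. All plants grew in chambers at 70% humidity, with nights of 14 h (25 °C) and days of 10 h (27 °C). No plant age and no treatment are given, and the labels do not say how many plants or meristems went into a library.

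An axillary meristem is a small group of dividing cells that forms in the angle between a leaf and the stem. It builds a bud, and in rice that bud may stay arrested or grow out as a tiller, the side shoot that can bear a panicle. Bud outgrowth is known to respond to hormones such as strigolactone, auxin and cytokinin. A numbered series of axillary meristems allows expression to be compared one step at a time along that series, and the step studied here is the third of 4.

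Libraries were made by CEL-Seq2, which copies RNA by in vitro transcription, counts the end of each transcript once and tags each molecule with a unique identifier (UMI). Total UMI counts were 139000 ± 21000 in AM3 (SD, n = 6, range 114024 to 173704) and 157000 ± 22100 in AM4 (SD, n = 6, range 120057 to 179993). The mean total was thus somewhat higher in AM4. The ranges overlapped, and totals over the 35 libraries ran from 77362 to 224706. Levels are given as CPM, the usual scaling of counts to a fixed library total, here over tested loci with TMM factors. Of 55801 loci in the table, 24225 had a count and 6943 were tested. Loci carry an identifier only, since the file does not pair identifiers with names and 0 identifiers matched the gene table used here. No gene name, function or marker list is therefore given, the tissue was not checked against marker genes, and chromosomes are those that the identifiers name.

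Library numbers run in sets (1 to 6, 7 to 12 and 13 to 18 within each cultivar), and each set holds 1 AM3 and 1 AM4 library. The test compared AM4 with AM3 within these 6 sets, by edgeR's quasi-likelihood F test with the set as a block and Benjamini-Hochberg adjustment over all tested loci.

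The locus of lowest p that rose was LOC_Os06g43600, on chromosome 6. It had 241, 373 and 532 CPM (lowest, median and highest of 6 libraries) in AM3 and 494, 636 and 1070 CPM in AM4. The highest AM3 library lay above the lowest AM4 library, so the groups overlapped slightly, but AM4 was the higher of the pair in 6 of 6 sets. The fitted log2 change was 0.87 ± 0.159 (SE, 1.83-fold, edgeR adjusted p = 0.00107). The size varied among sets, from 0.21 in Takanari 1 to 6 to 1.54 in NIL-MP3 13 to 18 on the log2 CPM scale. Without NIL-MP3 AM4 library 14, the highest of the AM4 libraries, the change was 0.7 and the adjusted p was 0.0692.

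LOC_Os05g32630, on chromosome 5, was the second of the rising loci. AM3 had 30.6, 45.2 and 61.1 CPM (lowest, median, highest, n = 6), from 33 counts in all, and AM4 had 85.8, 115 and 197 CPM, from 99 counts. Every AM4 library lay above every AM3 library. The log2 change was 1.41 ± 0.318 (SE, 2.65-fold, edgeR adjusted p = 0.0263), with 0.4 in the set that moved least and 1.67 in the set that moved most. The call was lost without any 1 of NIL-MP3 AM3 library 9 (adjusted p = 0.0636), NIL-MP3 AM3 library 15 (0.072), NIL-MP3 AM4 library 14 (0.114) or Takanari AM3 library 3 (0.115).

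Among falling loci, LOC_Os05g36280 on chromosome 5 had the lowest p. Its levels in AM3 were 205, 513 and 724 CPM (lowest, median, highest, n = 6), and in AM4 they were 75.6, 239 and 495 CPM. The groups overlapped widely because sets differed in level. NIL-MP3 13 to 18 was the lowest set in both tissues, with 205 CPM in AM3 and 75.6 CPM in AM4, and NIL-MP3 1 to 6 the highest, with 724 and 495 CPM. Within sets AM4 was lower in 6 of 6, by 0.47 to 1.43 in size on the log2 scale. The fitted change was -0.97 ± 0.175 (SE, 1.96-fold lower, edgeR adjusted p = 0.00107). Without the block, which leaves the spread between sets in the error, the change was -0.93 and the adjusted p was 0.716.

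LOC_Os01g06010, on chromosome 1, also fell in the step. Its AM3 libraries had 602, 788 and 958 CPM (lowest, median, highest, n = 6) and its AM4 libraries 336, 455 and 760 CPM. One AM4 library, that of Takanari 13 to 18 at 760 CPM, lay within the AM3 range above the AM3 libraries of NIL-MP3 13 to 18 and Takanari 1 to 6, and the other 5 lay below every AM3 library. The log2 change was -0.69 ± 0.133 (SE, 1.61-fold lower, edgeR adjusted p = 0.00186), with AM4 lower in 6 of 6 sets. Its changes in the neighbouring steps were -0.28 ± 0.125 from AM2 to AM3 and -0.4 ± 0.15 from AM4 to AM5 (SE; edgeR adjusted p = 0.292 and 0.209), in comparisons that share AM3 or AM4 libraries with this one.

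**Figure D1:**
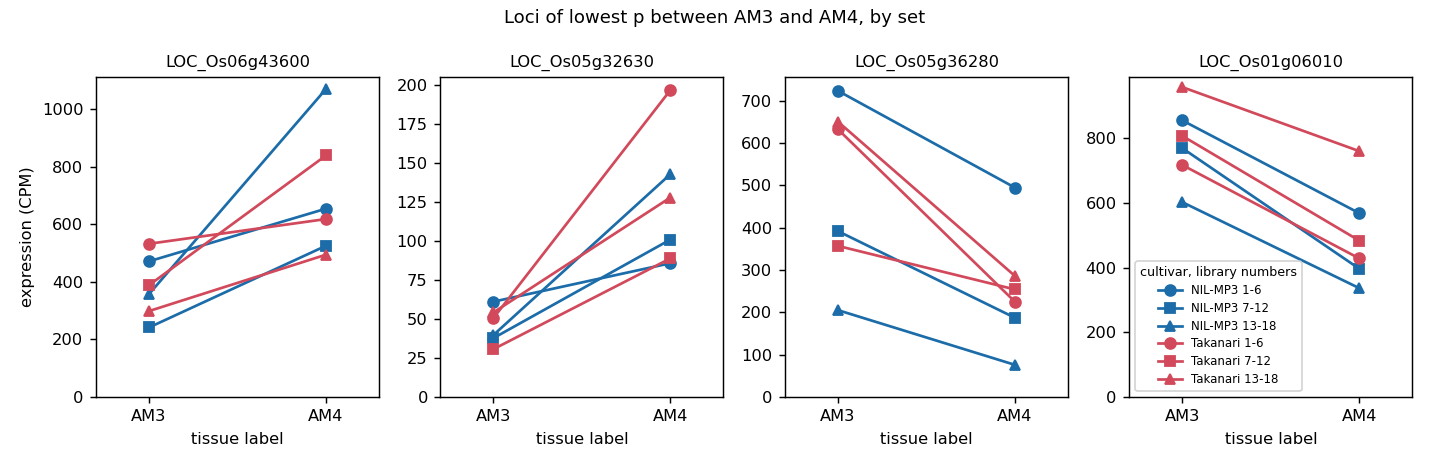
Expression in CPM (linear axes from 0, each panel with its own scale) of the 2 rising and 2 falling loci of lowest p, in AM3 and AM4. Each line joins the AM3 and AM4 library of 1 set of library numbers, with color for cultivar and marker shape for set. All 6 lines rise in the panels of LOC_Os06g43600 and LOC_Os05g32630 and all 6 fall in the others, while the sets differ in level, from 205 to 724 CPM in AM3 for LOC_Os05g36280.

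Across all tested loci, 40 differed between AM4 and AM3 (0.576% of 6943), 19 higher in AM4 (0.274%) and 21 lower (0.302%). An unadjusted p under 0.05 was found at 622 loci, where 5% of those tested is 347. The rising loci changed by 1.3-fold to 3.77-fold, with a median of 2.06-fold, and the falling loci by 1.44-fold to 3.85-fold, with a median of 1.62-fold. In bulk tissue, fewer cells of a type and less RNA per cell cannot be told apart in any of these values.

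The count of 40 depended on the block and on single libraries. It was 0 without the replicate block (smallest adjusted p 0.0773), 1 with a block of 3 levels shared by the cultivars and 2 in limma with a random effect for the set, an alternative chosen after seeing the data. It was 33 with DESeq2, 25 of them among the 40, and 33 with limma voom, 28 of them among the 40. With only the 12 AM3 and AM4 libraries it was 64, and 38 of the 40 loci were among them. Without 1 NIL-MP3 library it was 19, 6 or 5 (AM3 libraries 3, 9 and 15) and 42, 20 or 3 (AM4 libraries 2, 8 and 14). Without 1 Takanari library it was 3, 64 or 7 (AM3 libraries 3, 9 and 15) and 22, 13 or 12 (AM4 libraries 2, 8 and 14). Without 1 whole set it was 33, 7 or 10 (NIL-MP3 sets 1 to 6, 7 to 12 and 13 to 18) and 1, 41 or 4 (the same sets of Takanari). Counts thinned to an equal total gave 19 loci, 15 of them among the 40.

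Most called loci moved the same way in every set, which is part of what a test within sets selects. AM4 and AM3 had the same order in 6 of 6 sets at 17 of the 19 rising and 17 of the 21 falling loci, and in 5 of 6 sets at the rest. Over all tested loci 422 (6.08%) had the same sign in 6 of 6 sets. The 6 AM4 and 6 AM3 libraries did not overlap at 7 rising and 3 falling loci, and 36 of all tested loci (0.519%) had no overlap.

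Called loci came largely from well-counted loci. Among the 922 loci over 200 CPM, on the mean of AM3 and AM4, 24 were called (2.6%), and the median SE of the log2 change was 0.176. Between 50 and 200 CPM there were 15 of 4358 (0.344%), with a median SE of 0.317. Under 50 CPM there was 1 of 1663 (0.0601%), with a median SE of 0.467. At low levels the depth could therefore show only large changes.

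**Figure D2:**
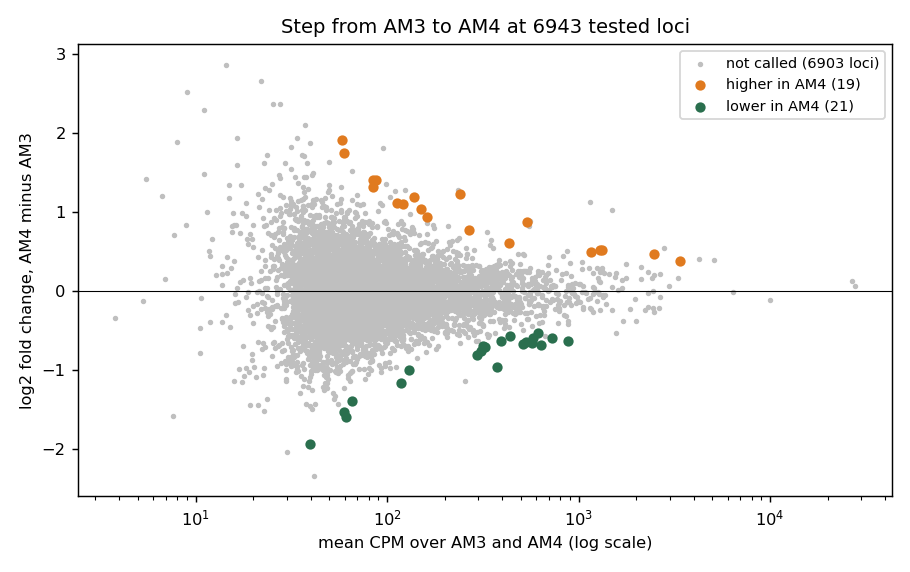
Log2 fold change from AM3 to AM4 (vertical axis) against mean CPM over both tissues (log scale) for 6943 tested loci, with the 19 called loci higher in AM4 in orange, the 21 lower in green and the others in grey. Grey points spread more widely toward low CPM, and 24 of the 40 called loci lie above 200 CPM.

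The step was small at most loci that could be measured well. The median size of the log2 change over the 6943 loci was 0.235, and the 5th and 95th percentiles were -0.65 and 0.7. The 95% interval of the change lay within 2-fold in either direction at 4112 loci (59.2%). That share was 96.2% over 200 CPM, 68.7% between 50 and 200 CPM and 13.8% under 50 CPM, so for most loci under 50 CPM a change beyond 2-fold could not be bounded.

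Among loci with 10 or more counts over the 6 libraries of a tissue, few had 0 in the other tissue. At loci with fewer counts, absence cannot be told from missed detection. A count was found at 19409 loci in AM3 and 19785 in AM4, and 17852 of these were the same loci. With 10 or more counts over the 6 libraries of one tissue and 0 in the other, there were 2 loci in AM4, LOC_Os04g52970 (10 counts) and LOC_Os08g01650 (11 counts), and 1 in AM3, LOC_Os01g18060 (13 counts). They are named after their values were seen. A count of 0 over the group allows up to 3 counts, so each level was above the floor by only a few counts.

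Both cultivars contributed to the called loci, and the steps were of like size at the median. The 19 rising loci had a median log2 change of 0.95 in NIL-MP3 and 1 in Takanari, and the 21 falling loci of -0.74 and -0.75. All 40 had the same sign in both cultivars. A test on the mean of the cultivars favors both a shared sign and like sizes, so neither shows that the steps were alike. Taken alone, NIL-MP3 with 3 sets had 2 called loci (0.0288%), both higher in AM4, and 431 at an unadjusted p under 0.05. These were LOC_Os06g43600, with 1.06 ± 0.223 (SE, edgeR adjusted p = 0.0287), and LOC_Os06g44034, outside the naming rule and named after its values were seen. Both calls were lost in DESeq2, in limma voom and without NIL-MP3 AM3 library 9 or 15 or NIL-MP3 AM4 library 2 or 14 (0 loci each). A single call was lost without NIL-MP3 AM3 library 3. The same held without NIL-MP3 AM4 library 8 and with no filter, where 2 loci were called and 1 of them was shared. Takanari had 0 called loci (0%) in edgeR, DESeq2 and limma voom, with 458 at an unadjusted p under 0.05 and a smallest adjusted p of 0.114. Without Takanari AM3 library 9 it had 6, and without NIL-MP3 AM4 library 2 it had 1.

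The cultivars' steps were then read against each other, which needs no shared library. Of the 97 loci with an unadjusted p under 0.01 in NIL-MP3, 77 (79.4%) had the same sign in Takanari, against 56.3% of all tested loci. The 45 rising among them had a median log2 change of 1.17 in NIL-MP3, where they were chosen, and 0.42 in Takanari. The 52 falling loci had -0.97 and -0.31. In the other direction, 108 of 133 loci chosen in Takanari (81.2%) had the same sign in NIL-MP3, with medians of 1.4 read as 0.54 for the 57 rising and -1.12 read as -0.38 for the 76 falling. Values read in the unused cultivar were thus under those that chose the loci. Locus by locus the steps of the cultivars had r = 0.197 (6943 loci, not independent of each other), and r = 0.5 over 200 CPM, where counting error is smaller.

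A direct test found no locus whose step differed between the cultivars (0 called, 0%, with edgeR, DESeq2 and limma voom). An unadjusted p under 0.05 was found at 251 loci, where 5% of those tested is 347, and the smallest adjusted p was 1. With 3 sets a cultivar this does not show that the steps were alike. For LOC_Os06g43600 the difference NIL-MP3 minus Takanari was 0.38 ± 0.319 on the log2 scale (SE, edgeR adjusted p = 1), and for LOC_Os05g36280 it was 0.29 ± 0.352 (SE, edgeR adjusted p = 1).

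**Figure D3:**
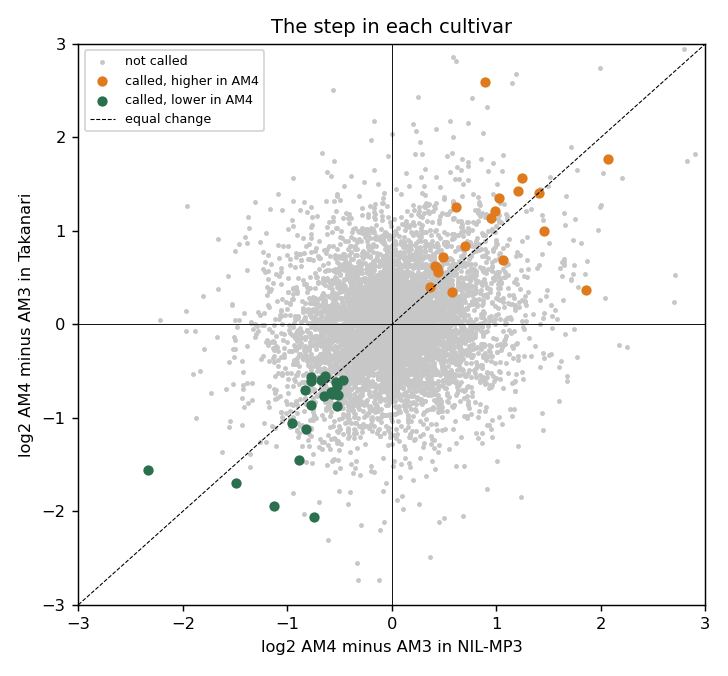
Log2 change from AM3 to AM4 in NIL-MP3 (horizontal axis) and Takanari (vertical axis) for the tested loci, with the dashed line marking equal change and 8 loci outside the plotted range of -3 to 3. The 19 rising loci (orange) and 21 falling loci (green), chosen on the mean of both axes, lie in the quadrants where the signs agree, while all tested loci (grey) form a cloud with r = 0.197.

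The longer interval from AM2 to AM5 spans the step and uses none of its libraries, although the same 6 sets supply both. Between AM2 and AM5 994 loci differed (14.3%), 531 higher (7.65%) and 463 lower (6.67%) in AM5. Of the 531, 446 (84%) were higher in AM4 than in AM3, and of the 463, 384 (82.9%) were lower, against 60.5% of all tested loci with the same sign in both comparisons. Their median log2 changes in the step were 0.3 and -0.27, beside 1.21 and -1.14 over the longer interval. In the step on their own, 15 (2.82%) and 17 (3.67%) of them passed the test. Over all tested loci 0.274% were called higher and 0.302% lower in the step. The 994 loci were not matched by level to all tested loci, and level matters for a call. In the step, 2.6% of loci over 200 CPM were called and 0.0601% of those under 50 CPM. Neither the shares of like sign nor the shares called are thus compared at like level.

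Unlike the count of 40, this share of the 994 loci hardly depended on the block. Over both directions the share was 83.5%. It was 84.9% of 730 loci without the replicate block, 85.3% of 771 with DESeq2 and 81.8% of 594 in thinned counts. With loci chosen in the other cultivar, between AM5 and AM1, neither the libraries nor the sets were shared. In Takanari 661 loci differed (9.52%), 344 higher in AM5 than in AM1 (4.95%) and 317 lower (4.57%), and 239 (69.5%) and 232 (73.2%) of them had the same sign in the step in NIL-MP3. In NIL-MP3 368 differed (5.3%), 190 higher (2.74%) and 178 lower (2.56%), and 170 (89.5%) and 151 (84.8%) had the same sign in the step in Takanari. Over all tested loci 50.1% had a positive step in NIL-MP3 and 49.7% in Takanari.

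The 40 loci were also followed outside the tissues that chose them. Of the 19 rising loci, 18 were higher in AM5 than in AM2, 15 of them past the threshold, with a median log2 change of 1.06. All 21 falling loci were lower in AM5 than in AM2, 17 past the threshold, with a median of -1.55. The falling loci had a larger median change over AM2 to AM5 than in the step (-0.7), while that of the rising loci was about as large as in the step (1.04). The medians in the step come from the values that chose the loci, which enlarges them. The AM2 to AM5 medians do not, so this contrast between the lists cannot be read as a difference in course. From AM1 to AM2 the median changes were -0.05 and -0.13, with 8 of 19 and 17 of 21 in the direction of the step and 0 called in either list (edgeR). A positive change from AM1 to AM2 was found at 50.8% of all tested loci. Over all tested loci 69 were called from AM1 to AM2 (0.994%), 8 higher (0.115%) and 61 lower (0.879%), 717 at an unadjusted p under 0.05, and 41 with DESeq2. From AM2 to AM3, in a comparison that shares the AM3 libraries with the step, the median log2 changes were -0.01 for the rising and -0.4 for the falling loci.

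LOC_Os05g36280 showed the falling pattern most fully among the named loci. Its mean levels from AM1 to AM5 were 890 ± 315, 817 ± 298, 494 ± 205, 254 ± 139 and 154 ± 58.5 CPM (SD, n = 6 each), with 718 ± 131 CPM in SAM (SD, n = 5). From AM2 to AM3, where the AM3 libraries are shared with the step, it fell by 0.74 ± 0.155 on the log2 scale (SE, edgeR adjusted p = 0.00268). Between AM2 and AM5 it fell by 2.43 ± 0.196 on the log2 scale (SE, edgeR adjusted p = 9.41e-18). LOC_Os06g43600 had 488 ± 90.6, 384 ± 75.7, 381 ± 107, 699 ± 217 and 905 ± 456 CPM from AM1 to AM5 (SD, n = 6 each) and 440 ± 44.3 CPM in SAM (SD, n = 5). The wide spread in AM5 followed the cultivar, with NIL-MP3 at 1270 ± 338 CPM and Takanari at 540 ± 73.5 CPM (SD, n = 3 each), a gap seen after the levels were examined and not tested. Its change from AM1 to AM2 was -0.35 ± 0.165 (SE, edgeR adjusted p = 0.44), and the step from AM3 to AM4 differed from it by 1.22 ± 0.229 on the log2 scale (SE, edgeR adjusted p = 0.00152).

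**Figure D4:**
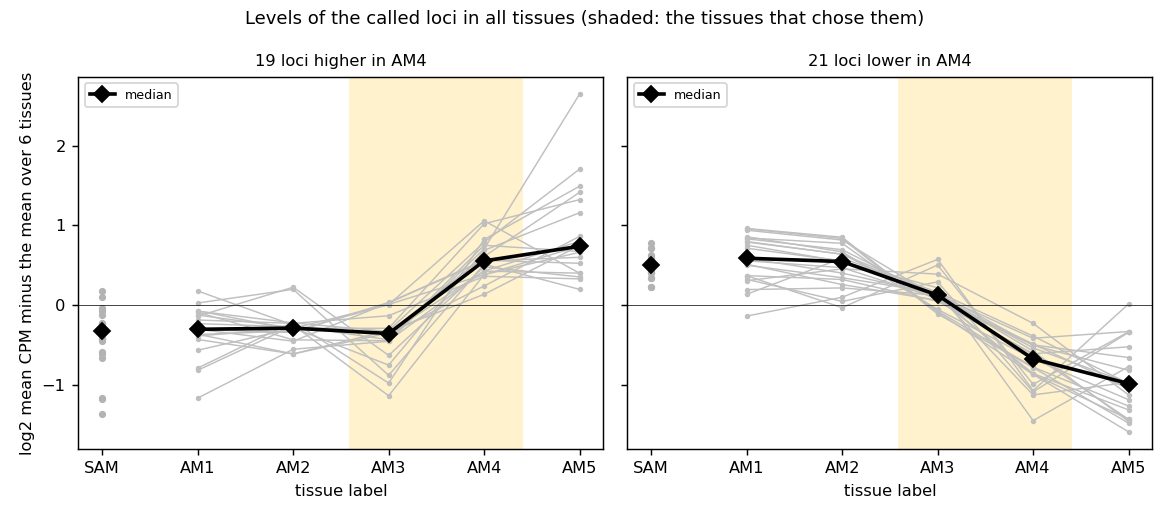
Log2 mean CPM in SAM and AM1 to AM5, relative to each locus's mean over the 6 tissues, for the 19 loci higher in AM4 (left) and the 21 lower in AM4 (right), with single loci in grey and their median in black. Shading marks AM3 and AM4, whose libraries chose the loci; outside it, the medians change little from AM1 to AM2, by -0.05 and -0.13 in the fit, and AM5 lies on the same side of AM2 as AM4 does of AM3 in both panels.

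Levels were also compared between loci in the 23 libraries that are neither AM3 nor AM4. The median r over the 210 pairs of falling loci was 0.78, against 0.473 over the 171 pairs of rising loci. It was -0.555 over pairs of a falling and a rising locus. Over pairs of all tested loci above 200 CPM, here on the mean of all libraries, it was 0.0041. Those pairs mix loci of all directions, while each list was chosen for a shared direction. These values contain the differences between tissues. With the mean of each group of cultivar and tissue taken out, falling loci had a median r of 0.42, rising loci 0.0545 and all tested loci above 200 CPM 0.00486. Pairs of a falling and a rising locus had a median of -0.113. Pairs of falling loci then ran from -0.591 to 0.925. Named after their values were seen, LOC_Os05g08420, LOC_Os01g48190 and LOC_Os03g55150 had the lowest median r with the other falling loci, at -0.449, -0.0252 and 0.132. Over the 15 falling and 9 rising loci above 200 CPM, the medians were 0.522 and -0.0357. The libraries share sets, and the values are a description.

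With the block, this step had the lowest count of called loci among the 4 between neighbouring labels. From AM2 to AM3 108 loci differed (1.56%), 45 higher (0.648%) and 63 lower (0.907%), and from AM4 to AM5 102 (1.47%), 73 higher (1.05%) and 29 lower (0.418%). Without the block the counts from AM1 to AM2, AM2 to AM3, AM3 to AM4 and AM4 to AM5 were 18, 3, 0 and 25. Counts do not test whether steps differ, and depth differed, since the AM5 libraries had the lowest totals of the AM labels (111000 ± 29300, SD, n = 6).

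Tests of the difference itself called few loci. The step differed from that between AM1 and AM2 at 14 loci (0.202%), with 11 more positive (0.158%) and 3 more negative (0.0432%) from AM3 to AM4. It differed from that between AM2 and AM3 at 2 loci (0.0288%) and from that between AM4 and AM5 at 0 (0%, edgeR, with 373 at an unadjusted p under 0.05 and a smallest adjusted p of 0.278, and 0 with DESeq2). The comparisons with the steps on either side share AM3 or AM4 libraries. A difference can come from either of its steps. Most of the 14 loci were not called from AM3 to AM4 itself, and most were called as falls from AM1 to AM2.

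LOC_Os07g18750, on chromosome 7, was the locus of lowest p against the AM1 to AM2 step, and it marks AM1. Its level was 710 ± 223 CPM in AM1 and then 212 ± 65.1, 219 ± 36.4, 237 ± 79.9 and 202 ± 64.5 CPM in AM2 to AM5 (SD, n = 6 each). It fell by 1.73 ± 0.172 on the log2 scale from AM1 to AM2 (SE, edgeR adjusted p = 4.34e-14), and its change from AM3 to AM4 was 0.12 ± 0.192 (SE, edgeR adjusted p = 0.916). The difference of 1.86 ± 0.258 (SE, edgeR adjusted p = 3.41e-07) thus came from the earlier step.

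LOC_Os07g04670, also on chromosome 7, had its lowest level in AM3. Its 6 libraries had 0, 3.77 and 19.9 CPM (lowest, median, highest) in AM3, from 6 counts in all, and 19.8, 43.6 and 75.6 CPM in AM4, from 34 counts. From AM1 to AM5 its mean levels were 71.3 ± 37.1, 15.6 ± 11.5, 7.38 ± 9.05, 43.5 ± 19.5 and 77.9 ± 38.9 CPM (SD, n = 6 each). It fell from AM1 to AM2 (-2.28 ± 0.545, SE, edgeR adjusted p = 0.0112), and its change from AM3 to AM4 was 2.37 ± 0.642 (SE, edgeR adjusted p = 0.054), just outside the threshold. The difference between these steps was 4.64 ± 0.841 (SE, edgeR adjusted p = 0.000624). AM4 was higher than AM3 in 6 of 6 sets, and at 6 counts in AM3 the size is imprecise.

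The named loci whose step was more negative than that from AM1 to AM2 were LOC_Os09g37910 and LOC_Os02g16909. LOC_Os09g37910, on chromosome 9, had 672 ± 140, 920 ± 130, 684 ± 97.3, 467 ± 204 and 309 ± 73.6 CPM from AM1 to AM5 (SD, n = 6 each), so its highest mean was in AM2. Its change from AM1 to AM2 was 0.45 ± 0.144 (SE, edgeR adjusted p = 0.125), which did not pass. Its step from AM3 to AM4 was -0.59 ± 0.151 (SE, edgeR adjusted p = 0.0406), and it differed from the step from AM1 to AM2 by -1.04 ± 0.209 (SE, edgeR adjusted p = 0.00346). AM4 was lower in 5 of 6 sets. In NIL-MP3 1 to 6 it was 845 CPM against 733 CPM in AM3. LOC_Os02g16909, on chromosome 2, had its highest mean in AM3, at 802 ± 225 CPM, with 383 ± 107 CPM in AM1, 598 ± 241 in AM2, 538 ± 128 in AM4 and 339 ± 122 in AM5 (SD, n = 6 each). The difference between its steps was -1.16 ± 0.233 (SE, edgeR adjusted p = 0.00448), and the step from AM3 to AM4 alone, -0.57 ± 0.159 (SE), did not pass (edgeR adjusted p = 0.0807), nor did the change from AM1 to AM2 (0.59 ± 0.171, SE, edgeR adjusted p = 0.0711). Without the replicate block neither difference passed (edgeR adjusted p = 0.233 for LOC_Os09g37910 and 0.181 for LOC_Os02g16909).

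Against the step from AM2 to AM3, both called loci also had their highest mean in AM3. LOC_Os12g01530, on chromosome 12, had 342 ± 128 CPM in AM2, 703 ± 235 in AM3 and 561 ± 129 in AM4 (SD, n = 6 each). LOC_Os04g16748, on chromosome 4, had 140 ± 28.4, 289 ± 32.5 and 190 ± 58.2 CPM in the same order. Both rose from AM2 to AM3, by 1.06 ± 0.172 and 1.03 ± 0.217 on the log2 scale (SE, edgeR adjusted p = 6.9e-05 and 0.00249). Their changes from AM3 to AM4 were -0.31 ± 0.163 and -0.66 ± 0.21 (SE, edgeR adjusted p = 0.591 and 0.16). For LOC_Os12g01530 the sets differed in sign. Its log2 changes were 0.1, -1.01 and -0.69 in the NIL-MP3 sets 1 to 6, 7 to 12 and 13 to 18. In those of Takanari they were 0.01, -0.7 and 0.59. The differences between the steps were -1.37 ± 0.285 and -1.69 ± 0.364 (SE, edgeR adjusted p = 0.0304 for both), and neither passed in DESeq2 (adjusted p = 0.433 for both). A high AM3 level enters these differences with the same sign from both steps.

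A position score placed each library on the axis from AM1 to AM5. Its weights were the AM5 minus AM1 changes of loci that passed in the opposite cultivar, 661 loci for NIL-MP3 and 368 for Takanari, so no AM3 or AM4 library entered that contrast. The cultivars use different loci, so levels are compared within a cultivar. In NIL-MP3 the score was -0.0243 ± 0.101 in AM3 and 0.0978 ± 0.138 in AM4, and in Takanari -0.0156 ± 0.106 and 0.184 ± 0.0285 (SD, n = 3 each). Groups overlapped in NIL-MP3 (-0.129 to 0.0724 against -0.0237 to 0.247) and not in Takanari (-0.107 to 0.101 against 0.159 to 0.215).

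Within sets, AM4 scored above AM3 in 6 of 6. The gains were 0.105, 0.0859 and 0.175 in the NIL-MP3 sets 1 to 6, 7 to 12 and 13 to 18, and 0.266, 0.0766 and 0.256 in those of Takanari. As a share of each set's own distance from AM1 to AM5 this was 13.9% to 41.2%. The mean gain of 0.161 ± 0.085 (SD, 6 sets) compares with 0.0613 ± 0.0519 from AM1 to AM2, 0.163 ± 0.0996 from AM2 to AM3 and 0.165 ± 0.086 from AM4 to AM5. On this measure the step was within the spread of sets of the steps on either side. Takanari 7 to 12, which gained least in this step, had gained most of all sets from AM2 to AM3 (0.359), and the AM3 library enters both values.

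**Figure D5:**
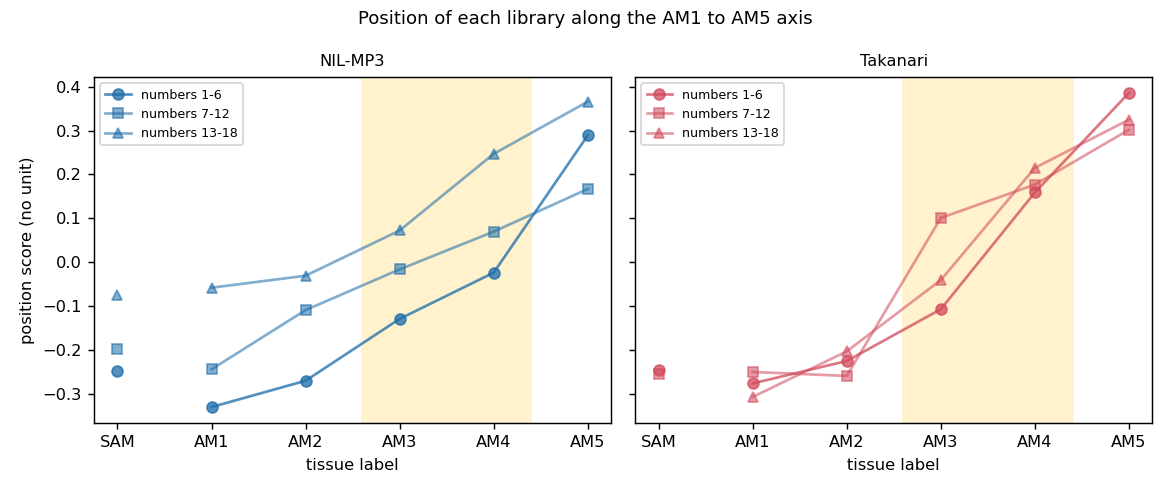
Position score (no unit) of each library by tissue label, in NIL-MP3 (left) and Takanari (right), with 1 line for each set of library numbers and SAM shown apart from the AM series. Every line rises from AM3 to AM4 (shaded), by 0.0766 to 0.266, and the NIL-MP3 sets keep their order from AM1 to AM4.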

How the data were processed

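The authors deposited UMI counts per locus, whole numbers that were not normalized, for 55801 loci and 35 libraries. The submitters' processing notes list Subread 2.1 and Bowtie2. The sources used here give no genome build, annotation or rule for reads shared between loci. Per the labels' protocols, 100 pg of RNA went into a library, amplified in 11 to 15 PCR cycles. Takanari SAM library 18 has no counts and was not used here. Every column belonged to a labelled library. Whether libraries of a group are from separate plants is not stated, so the p-values reflect only how these libraries vary, which may be technical.

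All 35 libraries were fitted in edgeR 4.0.16 (R 4.3.3) with 1 mean per group of cultivar and tissue (12 groups), a set block of 6 levels, TMM scaling, filterByExpr (minimum count 10) and robust quasi-likelihood tests, with Benjamini-Hochberg adjustment at 0.05. The step is the mean of the AM4 minus AM3 differences of the cultivars. The common biological coefficient of variation was 0.179. An SE is the size of the log2 change divided by the square root of F. Differences within sets and scores used log2 CPM with a prior count of 2. Alternatives used limma 3.58.1 and DESeq2 1.42.0. The score is a weighted sum of log2 CPM deviations from the cultivar's average over its AM groups, divided by the sum of squared weights. The floor of 3 counts beside a count of 0 covers counting error only. The scripts were tested on simulated data.

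The comparison, its block and the tests were chosen with earlier results of these data known. Named loci are the 2 of lowest p in each direction of the step, and of each difference between steps or cultivars, that passed 0.05. The gene lists that had been drawn up by symbol were not used, since no identifier matched. Deviations from group means of same-set AM3 and AM4 libraries had r of 0.0654 to 0.263 and those of different sets -0.178 to 0.0636. Deviations within a group cancel out in sum, so positive same-set values push those of different sets down. Not every same-set value was over 0.1 either, so the numbers are at most a weak hint of pairing. The block was kept because it defines the comparison. Within the 4 AM3 and AM4 groups, replicates differed by 1.72 to 2.84 times the sampling variance.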

Additional observations from a re-analysis of the deposited data

Results flagged for a closer look

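Among 31 groups of 6 values tested for a value far from the rest (named loci in AM3 and AM4, their changes in the 6 sets, and the score), 2 stood apart by Dixon's criterion, and chance alone gives about 1 in 20. Takanari AM4 library 14 had 810 CPM of LOC_Os12g01530, where the other 5 AM4 libraries had 471 to 581 CPM. In NIL-MP3 1 to 6, LOC_Os04g16748 changed by -1.6 on the log2 scale from AM3 to AM4, where the other 5 sets had -0.49 to -0.27. Both loci are those called in the difference from the AM2 to AM3 step.

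The step from AM3 to AM4 differed from that between AM1 and AM2 at 14 loci and from that between AM2 and AM3 at 2, by the test of the difference itself. Most of the 14, and both of the 2, were not called from AM3 to AM4 itself. For the named loci among these 14 and 2 the values were as follows. Against the step from AM1 to AM2 the log2 differences were 1.86 for LOC_Os07g18750, 4.64 for LOC_Os07g04670, 1.22 for LOC_Os06g43600, -1.04 for LOC_Os09g37910 and -1.16 for LOC_Os02g16909. Against the step from AM2 to AM3 they were -1.37 for LOC_Os12g01530 and -1.69 for LOC_Os04g16748.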

How the results depend on the processing

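The 40 loci called in the step became 0 without the replicate block, 1 with a replicate block of 3 levels, 64 with only the 12 AM3 and AM4 libraries (41 higher and 23 lower in AM4), 19 in thinned counts and 2 with the set as a random effect. Leaving out 1 library or set gave 1 to 64 loci. Every setting run kept the count of the cultivar difference at 0. The 2 loci of NIL-MP3 became 0 without the replicate block, with the block of 3 levels, in DESeq2, in limma voom, with the stricter filter, in thinned counts and with the random effect, and 9 with 12 libraries. Leaving out 1 library or set gave 0 to 2. The 0 loci of Takanari became 6 with 12 libraries and 4 with no filter, and 0 to 6 with 1 library or set left out. With no filter, 28 of 45 loci were higher in AM4, beside 19 of 40.

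Without the replicate block, the steps from AM1 to AM2, AM2 to AM3 and AM4 to AM5 had 18, 3 and 25 loci, and the differences from the first and second of them 4 and 0. In thinned counts the steps from AM1 to AM2 and AM2 to AM3 had 30 and 70 loci, the 3 differences 9, 0 and 1, and AM5 minus AM2 594. With no filter the 3 differences had 38, 6 and 3. DESeq2 gave 41 loci from AM1 to AM2 and 0 for the difference from AM2 to AM3. The mean score gain was 0.128 to 0.164 under 3 other settings.

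Of 145 values of the 10 named loci under other settings, 116 kept the call, 29 lost it and 0 changed sign. The 145 leave out settings where a locus was not tested or got no adjusted p. These were DESeq2 for LOC_Os05g32630, and DESeq2 and thinned counts for LOC_Os07g04670. No named call of the step held without the block: adjusted p was 0.0773 for LOC_Os06g43600, 0.225 for LOC_Os05g32630, 0.716 for LOC_Os05g36280 and 0.225 for LOC_Os01g06010. The log2 changes themselves were 0.88, 1.4, -0.93 and -0.67, close to those with the block. When 1 set was left out, the adjusted p of LOC_Os05g36280 (0.0524 without Takanari 1 to 6) and of LOC_Os01g06010 (0.0507 without NIL-MP3 7 to 12, 0.0524 without Takanari 1 to 6) lay just outside the threshold. That of LOC_Os05g32630 was 0.0563, 0.129, 0.199 and 0.0811 without NIL-MP3 7 to 12, NIL-MP3 13 to 18, Takanari 1 to 6 and Takanari 13 to 18. The random effect and the setting without the 2 AM5 libraries of lowest total (60 loci) were chosen after seeing the data. The cause of these moves was not tested. Depth limits loci under 50 CPM most.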

Other observations

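The 40 called loci lay on all 12 chromosomes, from 0.192% of the tested loci on chromosome 7 (1 of 522) to 1.27% on chromosome 5 (8 of 630, 2 higher and 6 lower). On chromosome 12 all 4 called loci were higher in AM4. No test of placement was made.

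A pair of the rising loci on chromosome 12, LOC_Os12g34056 and LOC_Os12g34128, named after their values were seen, had nearly the same counts in every library. Their totals over 35 libraries were 4717 and 4581, their counts had r = 0.975, and the chi-square of equal ratios over libraries was 0.531 per degree of freedom, below the value of 1 that independent counting gives on average. How reads shared between loci were assigned is not given, so the pair may not be 2 independent measurements. LOC_Os01g05970 and LOC_Os01g06010 were both called falling and are neighbours among tested loci by the order of their identifiers.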
